A study of Mus musculus with 116 samples.

Results

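FDB1 is a mouse myeloid cell line that needs an added growth factor, and here it carried FI-Delta, a mutant receptor named in the labels. The arrays described compare FI-Delta cells 6 h after the growth factor IL-3 was washed out, left without any factor, with the same FI-Delta cells at 0 h, when IL-3 was removed. They were chosen by their titles, which pair the FI-Delta 6 h RNA with the FI-Delta 0 h RNA, and 2 of the 58 dye-swap pairs of arrays in the series do so, which makes 4 arrays: 2 replicates, each hybridised in both dye orders. The FI-Delta 6 h RNA lies on 12 arrays in all. Other FI-Delta RNAs were taken at 12, 24, 48 and 72 h without factor. Cells with a second mutant receptor, V449E, were treated like the FI-Delta cells, and parental FDB1 cells were moved from IL-3 to 500 U/mL of GM-CSF and sampled at the same times. All lines grew in medium with 500 U/mL of mouse IL-3 and 10% fetal calf serum and were washed 3 times at 0 h. The 0 h reference is thus a cell in IL-3, whichever receptor it carries. The labels do not say whether a line was 1 clone. Nor do they say that the 2 replicates came from separate cultures, and the p-values therefore reflect the spread among RNAs that may be technical replicates.

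IL-3 and GM-CSF bind receptors that share a beta chain, which signals through JAK2 to STAT5, to RAS and ERK, and to PI3K. FI-Delta and V449E are activated forms of that chain that let cells signal without ligand. In FDB1 cells V449E is known for growth without factor and FI-Delta for maturation into granulocytes and macrophages. Removing IL-3 from such cells therefore takes away one input while the mutant receptor stays. STAT5 induces survival genes such as Pim1, and MYC drives genes of nucleotide synthesis and of ribosome assembly.

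Each value is a log2 ratio of the 6 h RNA over the 0 h RNA, so 1 is a 2-fold higher level at 6 h and -1 a 2-fold lower one. The deposited files state neither the log base nor which dye is on top. Base 2 and Cy5 over Cy3 are likely, since the labels give Cy5 as channel 1 and the submitters' processing notes name limma, which writes ratios that way. If Cy3 were on top, every sign below would turn. Signal intensities were not used, so no gene's level is known, a gene below background cannot be told from an unchanged one, and precision is limited by the number of arrays. Ratios also leave the cell type of the cultures unchecked by level: of 6 measured markers of myeloid cells only Ptprc, the pan-leukocyte antigen CD45, differed between 6 h and 0 h, at 0.63 (SE 0.13, adjusted p = 0.0236), and none of the 7 mast cell or basophil, 4 macrophage, 6 neutrophil, 4 erythroid, 3 megakaryocyte, 2 lymphoid or 4 stromal markers passed. The turned arrays of a dye swap correlated across probes at r = 0.514 in replicate 1 and 0.334 in replicate 2, and the 2 replicate means at r = 0.157. These correlations are across probes of arrays that share RNA or probes, and probes are not independent replicates.

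In FI-Delta cells at 6 h without factor, against 0 h, the largest rises were those of the cystine carriers Slc7a11 and Slc7a9 and the peptide carrier Slc15a3. The probes of Slc7a11 and Slc7a9 have consecutive identifiers, and whether they share signal was not tested. Of 21 measured oxidative defence genes 4 rose, and so did 12 of 48 genes of the NF-kB pathway, a list drawn up after the values had been seen. Myc fell, as did 9 of 31 MYC targets of growth and 10 of 49 ribosome biogenesis genes. These list counts depend on single RNAs, as given with each list. Differences of at least 2-fold were few: 7 probes were higher by that much and 2 lower. In limma's fit over all 36 RNAs, 158 of 21797 probes passed an adjusted p of 0.05, which is 0.725% of the probes tested. Of these, 65 were higher (0.298%) and 93 lower (0.427%) at 6 h, and 2053 probes had an unadjusted p under 0.05. All 93 lower probes had negative values on each of the 4 arrays and 64 of the 65 higher probes had positive ones. The exception was Gbp2, an interferon-induced GTPase. Over all probes, 10.5% were positive and 10.8% negative on all 4 arrays, but the same arrays chose the called probes, so these counts are a description.

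The count of called probes depended on single RNAs. It became 252 without FI-Delta 6 h replicate 1, 45 without FI-Delta 6 h replicate 2, 38 without FI-Delta 0 h replicate 1 and 6 without FI-Delta 0 h replicate 2. In each such fit the remaining RNA of that condition is assumed to vary like the others. Slc7a11, Slc7a9, Slc15a3, Fn3k and Rilpl2 passed in all 13 fits made of the 30 genes named next, and none of the 30 changed sign. Without FI-Delta 0 h replicate 2 the other 25 did not pass, at sizes of 0.47 to 1.99 (adjusted p from 0.0667 to 0.462). Without FI-Delta 6 h replicate 2, 17 did not pass (adjusted p from 0.0614 to 0.443), and without FI-Delta 0 h replicate 1, 14 did not (adjusted p from 0.0529 to 0.166). Without FI-Delta 6 h replicate 1, the higher genes Hmox1, Tcirg1, Il1rn, Olr1, Birc3 and Nxpe4 did not pass (adjusted p from 0.0535 to 0.267). Hmox1, Tcirg1, Olr1 and Birc3 passed in no fit that left out 1 of these RNAs. The size moved by over 1.5-fold for Nxpe4, to 0.53 without FI-Delta 6 h replicate 1, and for Id1, to -0.61 without FI-Delta 6 h replicate 2.

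Transporters held the first 3 places among the higher genes. Slc7a11, the cystine and glutamate exchanger that feeds glutathione synthesis, read 1.68 and 1.63 on the replicate 1 arrays and 1.72 and 1.79 on the replicate 2 arrays. All 4 arrays lay close together, and the fitted difference was 1.76 (SE 0.18, adjusted p = 3.29e-05), a 3.39-fold higher level at 6 h. Slc7a9, the light chain of another cystine carrier, read 1.75 and 1.74 on the replicate 1 arrays and 2.09 and 1.87 on the replicate 2 arrays. Its fitted difference was 1.71 (SE 0.19, adjusted p = 4.08e-05). Slc15a3, a peptide and histidine carrier of endosomes and lysosomes, read 1.71 and 1.44 on the replicate 1 arrays and 1.55 and 1.77 on the replicate 2 arrays. It was higher by 1.62 (SE 0.18, adjusted p = 4.08e-05), with its lowest array at 1.44.

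Hmox1 and Gclc, of the oxidative defence list, also stood among the 15 named higher genes. Hmox1, heme oxygenase 1, read 0.98 and 1.09 on the replicate 1 arrays and 1.06 and 1.21 on the replicate 2 arrays. The difference was 1.13 (SE 0.22, adjusted p = 0.0161). Gclc, the catalytic subunit of the first enzyme of glutathione synthesis, read 0.64 and 0.81 on the replicate 1 arrays and 1.05 and 1.10 on the replicate 2 arrays, with replicate 2 the higher. Its difference was 0.86 (SE 0.17, adjusted p = 0.0162). The next 4 genes are not on that list. Sqstm1, the autophagy receptor p62, rose by 1.06 (SE 0.21, adjusted p = 0.0161), with arrays between 0.87 and 1.27. Fn3k, a kinase that removes sugar adducts from proteins, rose by 1.05 (SE 0.12, adjusted p = 7.13e-05). Its probe and those of Slc7a11 and Slc7a9 have consecutive identifiers. Their differences from 0 h also declined alike, to 0.07, 0.25 and 0.28 at 72 h. Whether these probes share signal was not tested. Tcirg1, a subunit of the proton pump that acidifies lysosomes and granules, rose by 0.95 (SE 0.21, adjusted p = 0.0321), and Rilpl2, a RILP-like adaptor protein, by 0.96 (SE 0.11, adjusted p = 7.76e-05).

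The other higher genes were named by size and not as a group. Clec4e, the C-type lectin receptor Mincle, read 1.04 and 1.48 on the replicate 1 arrays and 0.44 and 1.51 on the replicate 2 arrays. One replicate 2 array was thus well below the other 3, and the fitted difference was 1.24 (SE 0.24, adjusted p = 0.0161). Il1rn, the antagonist of the IL-1 receptor, read 1.21 and 1.38 on the replicate 1 arrays and 0.48 and 0.83 on the replicate 2 arrays, with replicate 1 above replicate 2. It rose by 0.94 (SE 0.21, adjusted p = 0.0367). Olr1, a scavenger receptor for oxidised LDL, rose by 0.85 (SE 0.19, adjusted p = 0.0318), Nxpe4 by 0.82 (SE 0.13, adjusted p = 0.00343) and Klhl24, a substrate adaptor of a ubiquitin ligase, by 0.89 (SE 0.13, adjusted p = 0.00172). The other Klhl24 probes read 0.55 (adjusted p = 0.0306) and 0.33 (adjusted p = 0.185). Birc3, a ubiquitin ligase that restrains caspases, rose by 0.85 (SE 0.20, adjusted p = 0.0416) on 1 of its 2 probes. The other probe read 0.05 (SE 0.12, adjusted p = 0.986), so the probes of Birc3 disagree.

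Among the lower genes Tmtc2, which encodes a membrane protein of the endoplasmic reticulum, read -0.64 and -2.48 on the replicate 1 arrays and -2.53 and -2.62 on the replicate 2 arrays. The first of these arrays stood apart from the other 3, and the fitted difference was -2.18 (SE 0.31, adjusted p = 7.62e-04), a 4.52-fold lower level at 6 h. Myc, the transcription factor of cell growth, read -0.47 and -0.90 on the replicate 1 arrays and -1.14 and -1.21 on the replicate 2 arrays. Replicate 2 lay lower than replicate 1, and the fitted difference was -0.98 (SE 0.16, adjusted p = 0.00296). Id1, an inhibitor of basic helix-loop-helix factors, read -0.23 and -0.35 on the replicate 1 arrays and -1.33 and -1.11 on the replicate 2 arrays. All arrays were negative, the replicates did not overlap, and the difference was -0.92 (SE 0.20, adjusted p = 0.0274). Cd48, an adhesion receptor of blood cells, likewise fell further in replicate 2, at -0.50 and -0.46 on the replicate 1 arrays and -1.32 and -1.37 on the replicate 2 arrays. Its difference was -0.99 (SE 0.17, adjusted p = 0.00535).

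The remaining lower genes have varied roles. Gart, an enzyme of purine synthesis, read -0.60 and -0.82 on the replicate 1 arrays and -0.97 and -0.99 on the replicate 2 arrays. Its fitted difference was -0.89 (SE 0.15, adjusted p = 0.00393). Fasn, fatty acid synthase, fell by 0.89 (SE 0.13, adjusted p = 0.00172) on the log2 scale, with arrays from -1.48 to -0.78. Nop56 and Nop58, core proteins of the box C/D particles that methylate ribosomal RNA, were at -0.81 (SE 0.15, adjusted p = 0.00978) and -0.67 (SE 0.10, adjusted p = 0.00233). Xbp1, a transcription factor of the unfolded protein response, was at -0.79 (SE 0.11, adjusted p = 6.83e-04), and Hspd1, the mitochondrial chaperonin HSP60, at -0.64 (SE 0.12, adjusted p = 0.0129). Xrcc6, the Ku70 subunit of the DNA end-joining machinery, was at -0.71 (SE 0.14, adjusted p = 0.0168). Ikzf4, a zinc finger factor, was at -0.73 (SE 0.12, adjusted p = 0.00397), Sinhcaf, a subunit of a SIN3 and histone deacetylase complex, at -0.73 (SE 0.13, adjusted p = 0.00873), and Ptpn9, a tyrosine phosphatase, at -0.70 (SE 0.12, adjusted p = 0.00535). Rogdi was at -0.64 (SE 0.10, adjusted p = 0.0034). For 14 of the 15 lower genes, all but Fasn, the mean of replicate 2 lay below that of replicate 1.

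**Figure D1:**
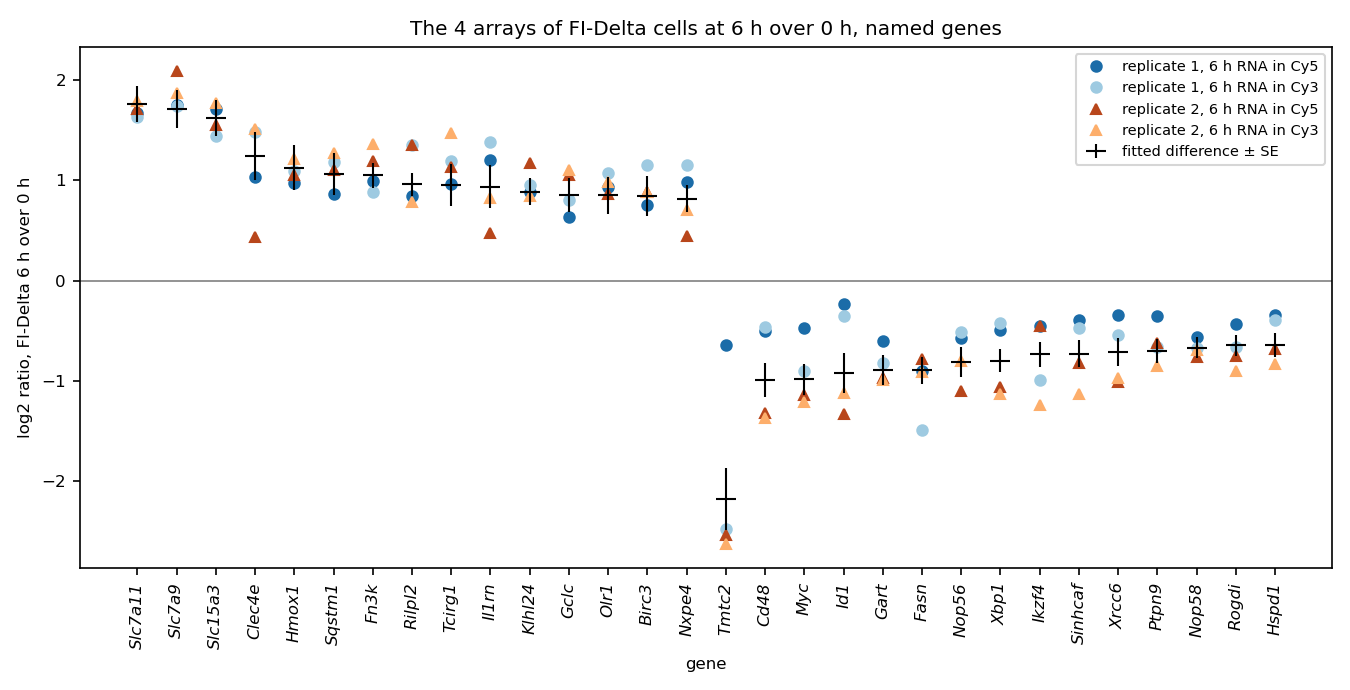
Log2 ratio of FI-Delta cells at 6 h over 0 h (y axis) for the 15 higher and 15 lower named genes (x axis), with a point for each of the 4 arrays, coloured by replicate and dye order, and the fitted difference with its standard error in black. The 4 arrays of Slc7a11 lie between 1.63 and 1.79, whereas 1 array of Tmtc2 lies at -0.64 and the other 3 between -2.62 and -2.48.

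Gene groups were read on the mean of the probes of each symbol, where 184 of 15097 symbols passed (1.22%), 75 higher (0.497%) and 109 lower (0.722%) at 6 h, and the median over all symbols was 0.00. No set test was made: a group's count and median stand beside those of all symbols. At the receptor, Csf2ra, the ligand-binding chain for GM-CSF, was at 0.19 (SE 0.15), Csf2rb2, the mouse beta chain specific to IL-3, at -0.23 (SE 0.22) and Il3ra at 0.08 (SE 0.06), and none passed (adjusted p from 0.78 to 0.852). Csf2rb, the shared beta chain, had no probe assigned to it alone and was not read. The sign of Csf2rb2 turned to 0.14 without FI-Delta 6 h replicate 2. Of 23 cytokine receptor chains 1 rose, Tnfrsf1b, the TNF receptor 2, at 0.79 (SE 0.14, adjusted p = 0.00466), which did not pass without FI-Delta 0 h replicate 2 (adjusted p = 0.160).

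Of 21 measured STAT5 targets 2 fell and none rose, with a list median of -0.09. They were Id1 and the survival kinase Pim1, which read -0.40 and -0.57 on the replicate 1 arrays and -0.72 and -0.48 on the replicate 2 arrays. The fitted difference of Pim1 was -0.59 (SE 0.14, adjusted p = 0.0307), and it did not pass with any 1 of the 4 FI-Delta RNAs at 6 h or 0 h left out (adjusted p from 0.0844 to 0.414). Without FI-Delta 6 h replicate 1 a member other than Pim1 passed beside Id1, and without each of the other 3 RNAs none did. No member of 36 ERK targets and immediate early genes passed. Egr1, an early zinc finger factor, was at -0.84 (SE 0.34, adjusted p = 0.319) and Atf3, a stress-induced factor, at 0.63 (SE 0.17, adjusted p = 0.0615). Without FI-Delta 6 h replicate 1 they were at -1.26 and 0.87. Without FI-Delta 6 h replicate 2 they were at -0.42 and 0.39. Of 40 FOXO targets and PI3K signalling genes 1 rose, Gadd45b, a stress sensor that binds MAP kinase kinases, at 0.56 (SE 0.11, adjusted p = 0.0138). Its arrays read 0.50 and 0.74 on the replicate 1 arrays and 0.62 and 0.64 on the replicate 2 arrays, and it passed without FI-Delta 6 h replicate 2 but not without any of the other 3 (adjusted p from 0.0821 to 0.241).

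Myc was the only called member among 11 genes of MYC and its partners and antagonists. Of 31 MYC targets of growth 9 fell and none rose, and the list median was -0.29. Beside Gart and Hspd1 these included Atic, an enzyme of purine synthesis, at -0.60 (SE 0.15, adjusted p = 0.0452) and Nme1, a nucleoside diphosphate kinase, at -0.53 (SE 0.11, adjusted p = 0.0132). Of 49 ribosome biogenesis genes 10 fell and none rose, with a median of -0.21. Beside Nop56 and Nop58 they included Polr1b, a subunit of RNA polymerase I, at -0.63 (SE 0.13, adjusted p = 0.0214) and Nop16, a nucleolar protein, at -0.58 (SE 0.12, adjusted p = 0.0166). Rcl1 belongs to both lists. The 60 measured cytosolic ribosomal proteins had no called member and lay between -0.17 and 0.15. Without FI-Delta 6 h replicate 1, 7 MYC targets and 9 ribosome biogenesis genes fell. Without FI-Delta 6 h replicate 2 the counts were 0 and 2, without FI-Delta 0 h replicate 1 they were 1 and 2, and without FI-Delta 0 h replicate 2 no member of either list passed. The 2 list medians stayed between -0.36 and -0.18 in these 4 fits.

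No gene of the cell cycle lists passed at 6 h. The 46 G1/S and DNA replication genes had a median of -0.15 in the fit, but -0.01 over the replicate 1 arrays and -0.20 over the replicate 2 arrays, and the fitted median was -0.077 without FI-Delta 6 h replicate 2. Among them were Rrm2, a subunit of ribonucleotide reductase, at -0.39 (SE 0.18) and Rpa3, of the single-strand DNA binding complex, at -0.38 (SE 0.14). The 37 G2/M and mitosis genes had a median of 0.02 in the fit, but 0.21 over the replicate 1 arrays and -0.11 over the replicate 2 arrays, so the replicates went opposite ways. Ndc80, of the kinetochore, was at 0.30 (SE 0.17) and Top2a, a DNA topoisomerase, at -0.29 (SE 0.14). Of 22 cell cycle exit genes none passed, among them Btg1 at 0.40 (SE 0.19) and Mxd1 at 0.40 (SE 0.23). Of 25 BCL2 family and cell death genes 2 fell, and both promote death: Bak1, a pore former of mitochondria, at -0.39 (SE 0.08, adjusted p = 0.0214) and Casp8, an initiator caspase, at -0.37 (SE 0.07, adjusted p = 0.0136). Of the 25 genes 18 lay above 0, and the list median was 0.05. Bak1 passed in none of the 4 fits with 1 RNA left out (adjusted p from 0.0577 to 0.330) and Casp8 only without FI-Delta 0 h replicate 1. The list had 2 higher and 0 lower members without FI-Delta 6 h replicate 1, and without FI-Delta 6 h replicate 2 or FI-Delta 0 h replicate 2 it had none. None of 18 p53 targets passed. Trp53inp1 was at 0.44 (SE 0.12, adjusted p = 0.0806) and Pmaip1, which encodes the BH3 protein NOXA, at 0.41 (SE 0.11, adjusted p = 0.0597). Without FI-Delta 6 h replicate 1 they were at 0.21 and 0.56. Without FI-Delta 6 h replicate 2 they were at 0.67 and 0.26.

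Of 21 oxidative defence genes 4 rose and none fell, with a median of 0.26. They were Slc7a11, Hmox1, Gclc and Srxn1, the sulfiredoxin that repairs peroxiredoxins, at 0.37 (SE 0.09, adjusted p = 0.0415). The list median was lower on the direct arrays than in the fit, at 0.19 in replicate 1 and 0.10 in replicate 2. The count was 3 without FI-Delta 6 h replicate 1, 2 without FI-Delta 6 h replicate 2 or FI-Delta 0 h replicate 1, and 1 without FI-Delta 0 h replicate 2. Slc7a11 is also on the list of the ATF4 and amino acid response, where of 30 genes it rose and Slc1a5, a glutamine carrier, fell (-0.45 (SE 0.09, adjusted p = 0.0164)), and the list median was -0.07. Without FI-Delta 6 h replicate 1, 2 members of that list rose, and Slc1a5 did not pass without any of the other 3 RNAs (adjusted p from 0.111 to 0.198). No aminoacyl tRNA synthetase of 18 passed, with a median of -0.15, Iars at -0.33 (SE 0.10) and Aars at -0.30 (SE 0.16), which turned to 0.080 without FI-Delta 6 h replicate 1. In metabolism, Slc16a1, a lactate carrier, fell (-0.61 (SE 0.12, adjusted p = 0.0108)), 1 of 20 glycolysis genes, and Fasn was the only one of 29 sterol and fatty acid synthesis genes to pass. Slc16a1 did not pass without FI-Delta 6 h replicate 2 (adjusted p = 0.0622) or FI-Delta 0 h replicate 2 (adjusted p = 0.247). Of 19 heat shock and chaperone genes 3 fell, namely Hspd1, its partner Hspe1 at -0.33 (SE 0.08, adjusted p = 0.0399) and the cochaperone Stip1 at -0.41 (SE 0.10, adjusted p = 0.0399). This count was 2 without FI-Delta 6 h replicate 1, where Stip1 did not pass, and 0 without each of the other 3 RNAs. Of 35 lysosome and autophagy genes 2 rose, Sqstm1 and Tcirg1, and the median was 0.13. The count stayed at 2 without FI-Delta 6 h replicate 1 and was 0 without each of the other 3 RNAs.

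NF-kB is held in the cytoplasm by inhibitors that many of its own targets restore. A list of 48 measured pathway members and targets was drawn up after the values had been seen, and its count is a description only. Of these genes 12 rose and none fell, and the list median was 0.28. Nfkb2, which encodes the p100 precursor of the p52 subunit, was at 0.65 (SE 0.13), and Relb, the partner of p52, at 0.62 (SE 0.13). Tnfaip3, the feedback inhibitor A20, read 0.73 and 0.85 on the replicate 1 arrays and 0.67 and 0.89 on the replicate 2 arrays, with all 4 arrays close together. It rose by 0.75 (SE 0.17, adjusted p = 0.027). Ccrl2, an atypical chemokine receptor, rose by 0.81 (SE 0.12, adjusted p = 0.00175) and Il1a, the cytokine IL-1 alpha, by 0.81 (SE 0.20, adjusted p = 0.0451). Tnfaip3 and Il1a did not pass with any 1 of the 4 FI-Delta RNAs at 6 h or 0 h left out. Of 25 inflammatory cytokine genes 3 rose, Il1rn, Il1a and Tnfaip3. The NF-kB count was 9 without FI-Delta 6 h replicate 1, 6 without FI-Delta 6 h replicate 2, 3 without FI-Delta 0 h replicate 1 and 0 without FI-Delta 0 h replicate 2, and the inflammatory count was 1, 1, 0 and 0 in these fits.

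Genes of mature myeloid cells were read beside all symbols. Of 47 macrophage genes, 34 lay above 0 in the fit, where 7495 of all 15097 symbols did. Called as higher were 2 (4.26%, beside 0.497% of all symbols), Clec4e and Clec7a. Clec7a, the beta-glucan receptor dectin-1, was at 0.61 (SE 0.14, adjusted p = 0.0258). The macrophage count was 3 without FI-Delta 6 h replicate 1 and 0 without each of the other 3 RNAs. None of 24 late neutrophil granule genes passed, but 23 lay above 0 in the fit, and their median was 0.24. Here the replicates differed: the direct medians were 0.56 in replicate 1 and 0.07 in replicate 2. Ltf, the granule protein lactoferrin, read 1.90 and 2.27 on the replicate 1 arrays and -0.03 and -0.12 on the replicate 2 arrays. Ngp, another granule protein, read 1.35 and 1.56 on the replicate 1 arrays and 0.15 and 0.02 on the replicate 2 arrays. Both were high in replicate 1 and near 0 in replicate 2, and their fitted differences of 0.69 (SE 0.61, adjusted p = 0.82) and 0.77 (SE 0.53, adjusted p = 0.694) are within that spread. Ltf turned to -0.12 without FI-Delta 0 h replicate 1. None of the 13 genes on the primary granule list passed. Elane, neutrophil elastase, was at 0.43 (SE 0.34). Igsf6, an immunoglobulin superfamily member that was placed on this list, was at 0.44 (SE 0.13). Fewer cells of a type and less RNA per cell cannot be told apart in these bulk samples.

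Genes of other lineages were read in the same way, beside the 1.22% of all symbols that passed. At that share a list of this size can lack a called member without being unusual. None of 21 mast cell and basophil genes passed, with Hdc, the histamine-forming enzyme, at 0.94 (SE 0.33) and Hgf at 0.63 (SE 0.28). Without FI-Delta 6 h replicate 1 they were at 1.68 and 1.30. Without FI-Delta 6 h replicate 2 they were at 0.20 and -0.027. Of 16 erythroid and megakaryocyte genes F2r, a thrombin receptor, fell (-0.94 (SE 0.23, adjusted p = 0.0474)), but it did not pass with any 1 of the 4 RNAs left out (adjusted p from 0.161 to 0.292). Id1 was the only called member of 30 progenitor regulators. No gene passed among 23 lymphoid genes, where Il7r was at 0.59 (SE 0.21) and Cd8b1 at -0.51 (SE 0.15). Cd8b1 was at -0.86 without FI-Delta 6 h replicate 1 and -0.16 without FI-Delta 6 h replicate 2. Nor did any of 15 genes of MHC class II and costimulation pass. Ciita, the master activator of class II genes, was at -0.48 (SE 0.15) and H2-Eb1 at 0.29 (SE 0.29), which turned to -0.020 without FI-Delta 0 h replicate 2. Of 21 interferon response genes Gbp2 rose, at 0.51 (SE 0.11, adjusted p = 0.0267), but its direct arrays read 0.11 and 0.25 on the replicate 1 arrays and -0.13 and 3.13 on the replicate 2 arrays. A single array thus carried the direct signal, and the fitted value draws on the other arrays that hold these RNAs. Gbp2 did not pass without FI-Delta 6 h replicate 2 (adjusted p = 0.244) or FI-Delta 0 h replicate 2 (adjusted p = 0.493). In all, 18 of the 30 lists had a called member. Id1, Slc7a11 and Hspd1 each stand on more than 1 list, and the number expected at the 1.22% share was not worked out.

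**Figure D2:**
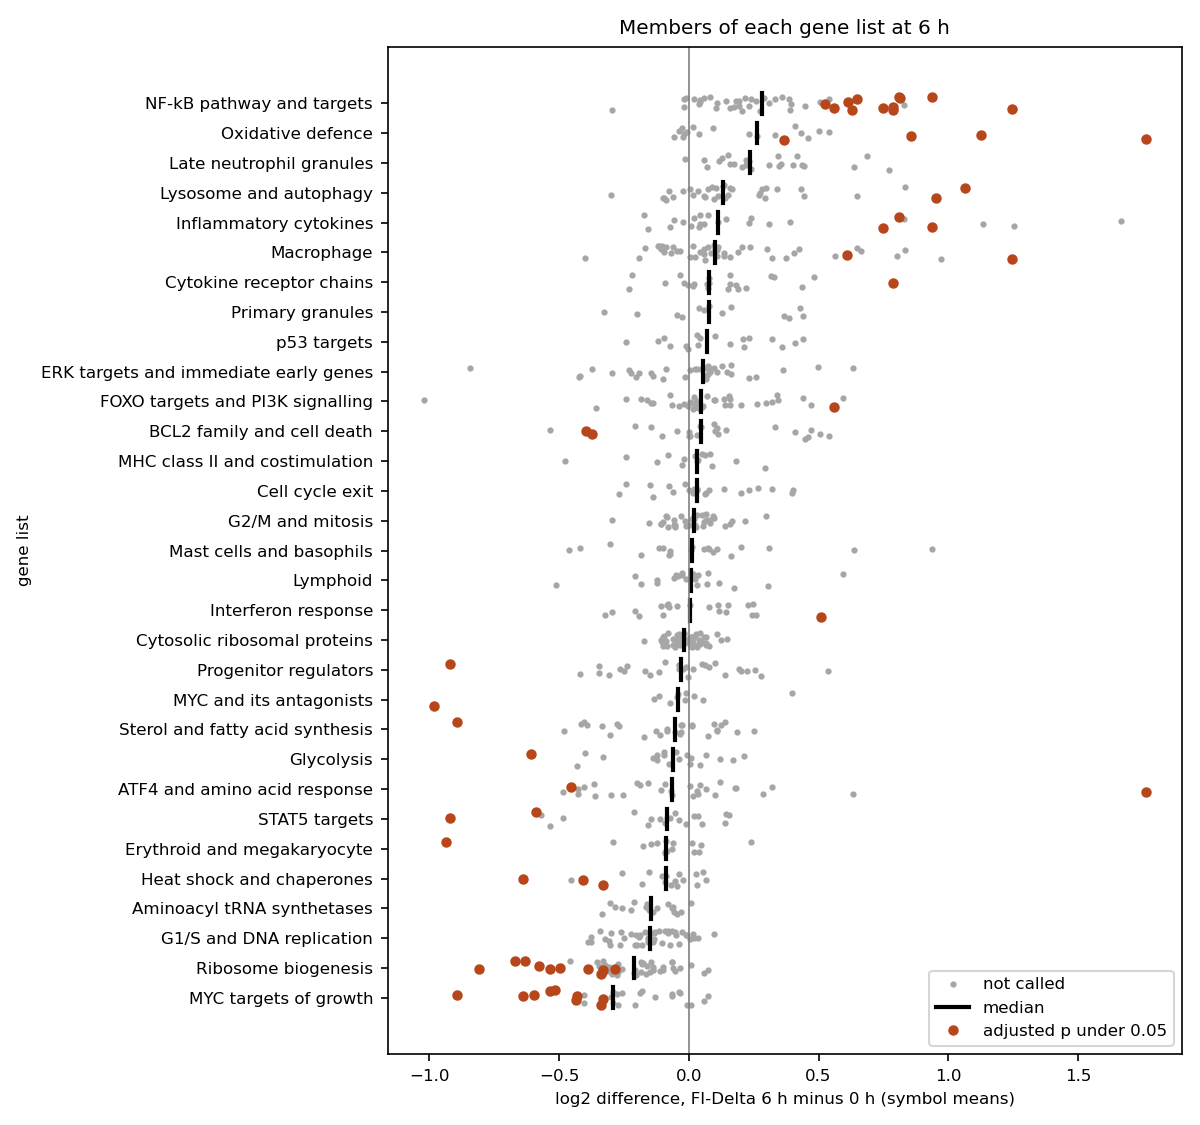
Each point is a measured member of a gene list (y axis, ordered by list median) at its log2 difference between FI-Delta cells at 6 h and at 0 h (x axis, symbol means), in colour where the adjusted p was under 0.05, with the list median as a black bar. All 12 called NF-kB genes and 4 called oxidative defence genes lie above 0, and the 10 called ribosome biogenesis and 9 called MYC target genes lie below 0.

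The promoters of 4 genes are given to show what lies upstream of genes that rose or fell at 6 h. Pim1 and Gadd45b are the called STAT5, ERK or FOXO pathway genes with a sequence in the RefSeq promoter table (GRCm38.p6, 250 bases before to 50 after the start), and Slc7a11 and Nfkb2 were added after their values were seen. Both strands were searched for 5 motifs: TTCNNNGAA, the palindrome bound by STAT factors, TGACNNNGC, the core of the antioxidant response element, CACGTG, the E-box bound by MYC and MAX, the kappaB motif GGGA, any base, TTTCC, and TGATGCAA, a composite site of C/EBP and ATF factors. Capitals mark the matches, none of which overlaps another in the sequences shown. The Slc7a11 promoter lies at chr3:50443564-50443863 on the minus strand, the Nfkb2 promoter shown, the second of 3, at chr19:46305445-46305744 on the plus strand, the Pim1 promoter shown, the second of 2, at chr17:29492835-29493134 on the plus strand and the Gadd45b promoter at chr10:80929841-80930140 on the plus strand.
Slc7a11: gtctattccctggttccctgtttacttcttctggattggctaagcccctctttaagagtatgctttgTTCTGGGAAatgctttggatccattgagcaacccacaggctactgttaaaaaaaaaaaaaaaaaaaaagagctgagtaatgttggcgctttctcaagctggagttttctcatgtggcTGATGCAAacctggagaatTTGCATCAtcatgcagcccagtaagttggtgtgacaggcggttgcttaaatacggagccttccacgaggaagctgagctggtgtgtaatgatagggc
Nfkb2: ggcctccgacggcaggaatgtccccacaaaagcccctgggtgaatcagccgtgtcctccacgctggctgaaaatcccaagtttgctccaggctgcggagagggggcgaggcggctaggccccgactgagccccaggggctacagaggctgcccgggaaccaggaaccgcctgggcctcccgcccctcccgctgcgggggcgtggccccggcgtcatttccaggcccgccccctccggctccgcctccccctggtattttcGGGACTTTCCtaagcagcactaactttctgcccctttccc
Pim1: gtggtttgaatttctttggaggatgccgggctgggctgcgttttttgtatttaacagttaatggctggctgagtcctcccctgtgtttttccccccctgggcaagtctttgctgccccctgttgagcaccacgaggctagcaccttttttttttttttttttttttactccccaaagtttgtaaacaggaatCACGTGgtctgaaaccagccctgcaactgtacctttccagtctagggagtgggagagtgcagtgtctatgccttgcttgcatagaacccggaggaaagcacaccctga
Gadd45b: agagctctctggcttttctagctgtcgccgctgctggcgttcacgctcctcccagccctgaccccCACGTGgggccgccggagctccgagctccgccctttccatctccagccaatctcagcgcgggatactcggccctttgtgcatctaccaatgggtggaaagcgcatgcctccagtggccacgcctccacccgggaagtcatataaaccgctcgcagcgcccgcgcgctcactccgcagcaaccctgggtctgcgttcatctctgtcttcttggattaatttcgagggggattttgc

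Slc7a11 held TGATGCAA on both strands, with first bases at -66 and -47 from the start, and a STAT palindrome at -183. TGATGCAA stood in 1.03% of all 27025 genes of the promoter table. Of the called genes with a promoter there, 1 of 48 higher (2.08%) and 0 of 72 lower ones held it. The Nfkb2 window held GGGACTTTCC at 11 bases after the start. A kappaB match stood in 0.466% of all genes, 1 of 48 higher (2.08%) and 0 of 72 lower ones. Of the Nfkb2 windows not shown, the first held a STAT palindrome at -148 and the third, which overlaps the one shown, the same kappaB match at -225. CACGTG stood at -58 in the Pim1 window shown and at -185 in Gadd45b, and the first Pim1 window held none of the 5 motifs. It was found in 8.09% of all genes, in 9 of 48 genes higher at 6 h (18.8%) and in 14 of 72 genes lower at 6 h (19.4%) that had a promoter in the table. The STAT palindrome stood in 9.55% of all genes, 6.25% of the higher and 9.72% of the lower ones, and the antioxidant core in 14%, 18.8% and 15.3%. These shares were not tested, and a match is a description of letters only.

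V449E cells left without factor for 6 h were compared to ask whether the 6 h response differed between the 2 mutant receptors. No probe differed between the responses of the 2 lines (0% called), and 151 had an unadjusted p under 0.05. The fit of the ratios over 0 h alone called 0 as well. V449E cells at 6 h against 0 h had 153 called probes (0.702%), 85 higher (0.39%) and 68 lower (0.312%). The fit that gave the 158 FI-Delta probes also draws on V449E arrays, so signs were compared for the 66 probes (0.303%) called from the 2 direct FI-Delta means alone, an alternative chosen after values were seen. The arrays of V449E cells at 6 h over 0 h share no RNA with those. Of the 42 higher probes (0.193%), 39 were positive in both V449E replicate means, where 33.6% of all probes were, and of the 24 lower probes (0.11%) 23 were negative in both, where 30.9% of all were. Their direct medians in V449E cells were 0.87 and -0.55. For Slc7a11 the response in FI-Delta cells minus that in V449E cells was 0.39 (95% interval -0.15 to 0.92). For Myc the responses were -0.98 in FI-Delta and -0.83 in V449E cells, with a difference of -0.15 (95% interval -0.61 to 0.31). For Il1rn they were 0.94 and 0.47, a difference of 0.46 (95% interval -0.16 to 1.09). The interval held 0 for all 30 named genes. Of the 58 genes named from lists it left out 0 for 6, none of which passed over all symbols. Mxd1, an antagonist of MYC, was at 0.40 in FI-Delta and 1.42 in V449E cells, a difference of -1.02 (95% interval -1.70 to -0.34). Pmaip1 (-0.50, 95% interval -0.81 to -0.19), Igsf6 (-0.50, 95% interval -0.89 to -0.11), Ccrl2 (-0.49, 95% interval -0.85 to -0.13) and Bak1 (-0.26, 95% interval -0.50 to -0.010) also had lower values in FI-Delta cells, and Il1a a higher one (0.65, 95% interval 0.07 to 1.23). Intervals of this width around 0 do not show that the lines respond alike. Without FI-Delta 6 h replicate 2 the difference of Nt5m passed (0.75), and without V449E 6 h replicate 1 those of Zfp287 (-1.12) and Spdya (-1.24), 3 genes chosen after their values were seen.

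By list, the 6 h counts of V449E cells stood beside those of FI-Delta cells as follows. Over all symbols, 86 (0.57%) were higher and 71 (0.47%) lower in V449E cells, 1.04% in all. NF-kB genes rose in 12 of 48 cases in FI-Delta cells and in 15 in V449E cells. MYC targets fell in 9 and 5 of 31 cases and ribosome biogenesis genes in 10 and 6 of 49. Oxidative defence genes rose in 4 and 3 of 21 cases. The differences between these counts were not tested.

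Parental cells moved to GM-CSF for 6 h lost IL-3 too but gained a ligand of the shared beta chain. No cells of any line were washed and then kept in IL-3 for 6 h. Loss of IL-3, washing and time in culture therefore cannot be told apart in changes that the lines share. No probe's response differed between FI-Delta cells without factor and parental cells in GM-CSF (0% called in limma), and 324 had an unadjusted p under 0.05. The fit of the ratios over 0 h alone called 1, Tnfaip2 at 0.75 (adjusted p = 0.0265), an NF-kB target gene. Without the print run 2 arrays, 4 passed: Ms4a18 (1.29), 4930578I06Rik (1.21), Vars2 (1.04) and Fdx1 (-0.66), and without GM-CSF 6 h replicate 2, 13 did. These genes too were chosen after their values were seen. Parental cells in GM-CSF had 96 called probes at 6 h (0.44%), 63 higher (0.289%) and 33 lower (0.151%). Of the same 42 and 24 FI-Delta probes, whose direct arrays share no RNA with the GM-CSF arrays over parental 0 h, 38 were positive in both GM-CSF replicate means (27.3% of all probes) and 21 negative in both (26.1% of all).

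Hmox1, Gclc and Slc7a11 passed as higher in both settings (adjusted p from 1.17e-04 to 0.00292 in GM-CSF). Hmox1 was at 1.13 in FI-Delta cells and 1.47 in GM-CSF, Gclc at 0.86 and 1.17, and Slc7a11 at 1.76 and 1.64. Myc was at -0.98 in FI-Delta cells and -0.17 (SE 0.16) in GM-CSF. Its difference of -0.82 had a 95% interval of -1.28 to -0.36 and an unadjusted p of 0.00123, and did not pass over all probes (adjusted p = 1). Olr1 was at 0.85 in FI-Delta cells and 0.04 in GM-CSF, a difference of 0.81 (95% interval 0.26 to 1.36) that did not pass either (adjusted p = 1). The interval left out 0 for 7 of the 30 named genes and for 7 of the 58 list genes, Myc and Nop58 in both. Among them Elane was at 0.43 in FI-Delta cells and -0.69 in GM-CSF, a difference of 1.12 (95% interval 0.14 to 2.10). The GM-CSF time course had its replicate 2 arrays from print run 2, and the FI-Delta arrays at 6 h over 0 h from print run 1, so print run and line cannot be fully told apart here.

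**Figure D3:**
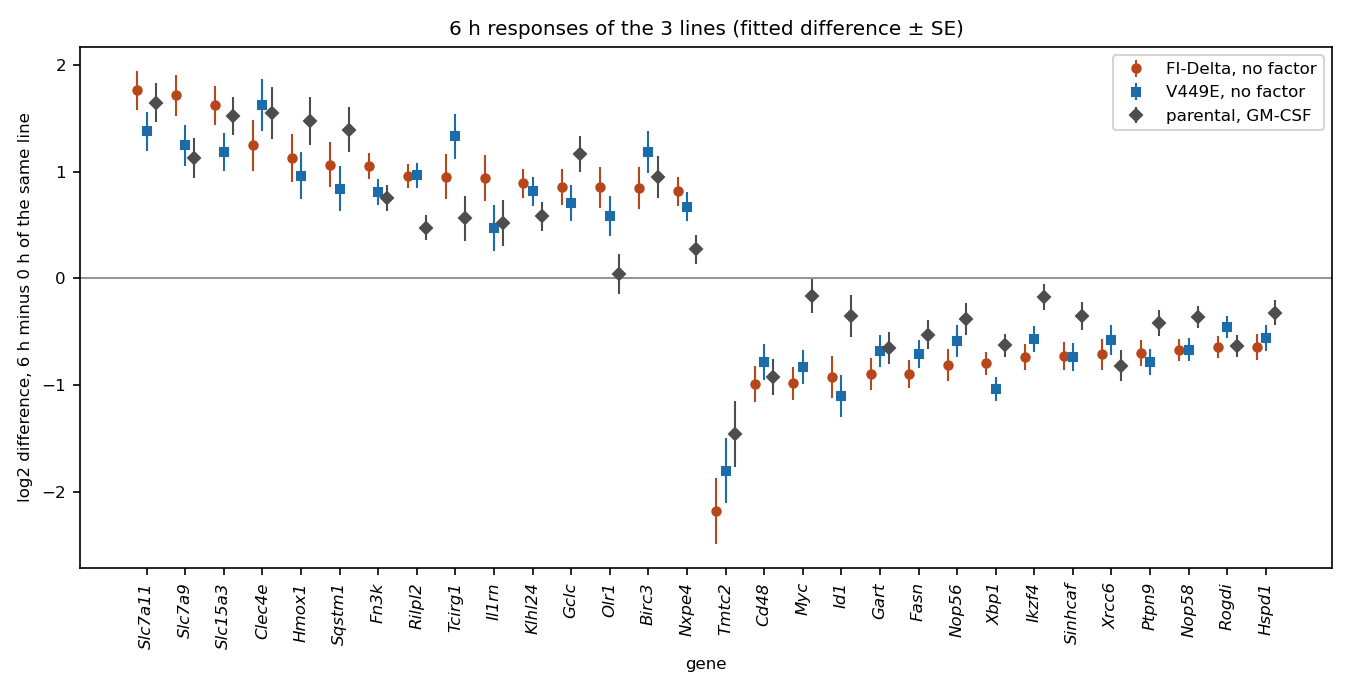
Fitted log2 difference between 6 h and 0 h, with its standard error (y axis), for the 30 named genes (x axis) in FI-Delta cells without factor (circles), V449E cells without factor (squares) and parental cells in GM-CSF (diamonds). Myc lies at -0.17 in GM-CSF, against -0.98 in FI-Delta and -0.83 in V449E cells, and Hmox1 lies between 0.96 and 1.47 in the 3 lines.

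Later times in FI-Delta cells show how the 6 h changes went on. The differences from 0 h at 12, 24, 48 and 72 h share their 0 h RNAs with the 6 h difference, so they are given side by side only. Slc7a11 was at 1.76, 1.17, 0.81, 0.42 and 0.25 at 6, 12, 24, 48 and 72 h. Hmox1 was at 1.13, 0.38, -0.11, -0.27 and -0.21, and both thus stood highest at 6 h. Olr1 held its level, at 0.85, 0.84, 0.90, 1.04 and 1.10. Myc was at -0.98, -0.94, -0.26, -0.24 and -0.59, lowest at 6 and 12 h. Tmtc2 was at -2.18, -2.56, -2.79, -2.92 and -3.10. Over the probes higher at 6 h the medians at these 5 times were 0.63, 0.38, 0.34, 0.28 and 0.27. Over the lower ones they were -0.50, -0.51, -0.23, -0.32 and -0.55. These probes, and the genes named here, were chosen by their 6 h difference. Part of their size at 6 h therefore comes from that choice.

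**Figure D4:**
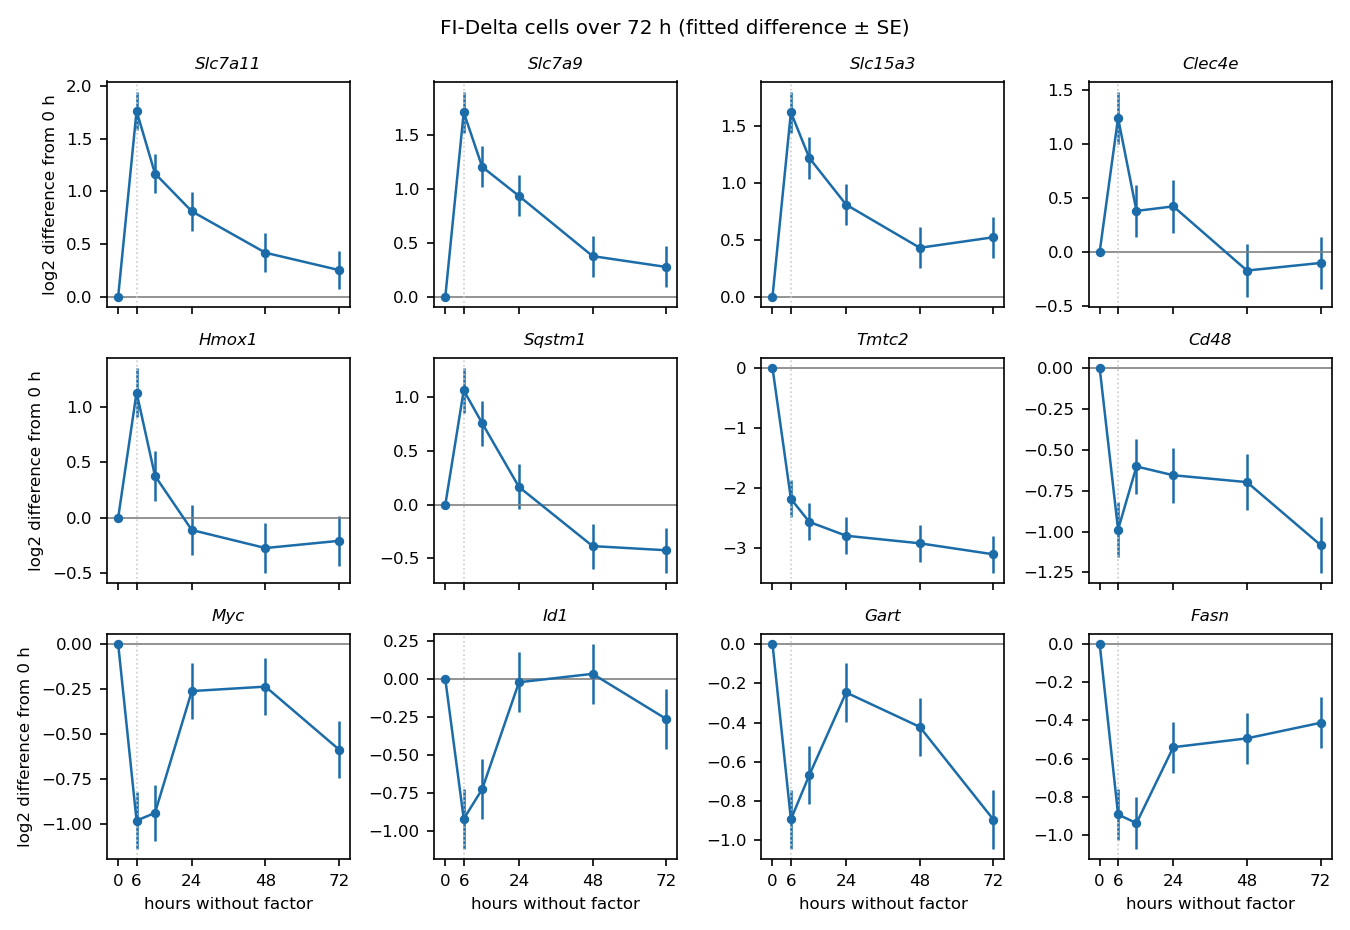
Fitted log2 difference from 0 h with its standard error (y axis) against hours without factor (x axis) in FI-Delta cells, for the first 6 higher and the first 6 lower named genes, with a dotted line at 6 h and 0 h set to 0. The genes were chosen by their 6 h difference, which favours a large size at that time. Slc7a11, Slc7a9, Slc15a3, Clec4e, Hmox1 and Sqstm1 are highest at 6 h and lie lower at 72 h, and Tmtc2 falls on to -3.10 at 72 h.

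No array held the 12 h or 72 h RNA beside the 6 h RNA, and these were linked through the 0 h RNAs and the other lines. The contrast of 12 h with 6 h gave 85 called probes (0.39%), 34 higher (0.156%) and 51 lower (0.234%) at 12 h. Dynll1, a dynein light chain, was at 0.86 (SE 0.16, adjusted p = 0.0255) and had been at -0.64 at 6 h against 0 h, where it did not pass. Ddx17, an RNA helicase, was at 0.67 (SE 0.12, adjusted p = 0.0194), Actg1, cytoplasmic gamma-actin, at 0.66 (SE 0.11, adjusted p = 0.0174) on 1 of its 2 probes, Prkcb, a protein kinase C, at 0.61 (SE 0.08, adjusted p = 0.00553) and Rogdi at 0.59 (SE 0.10, adjusted p = 0.0188). Among genes lower at 12 h than at 6 h were the cholesterol synthesis enzymes Cyp51 at -0.85 (SE 0.17, adjusted p = 0.0289) and Msmo1 at -0.74 (SE 0.15, adjusted p = 0.0382). Hnrnpdl, an RNA-binding protein, was at -0.82 (SE 0.17, adjusted p = 0.0387), Clic4 at -0.77 (SE 0.15, adjusted p = 0.0289) and Rad18, a ubiquitin ligase of DNA damage tolerance, at -0.76 (SE 0.13, adjusted p = 0.0123). Neither cholesterol enzyme had passed at 6 h against 0 h. This count was 258 without FI-Delta 6 h replicate 1, 0 without FI-Delta 6 h replicate 2, 19 without FI-Delta 12 h replicate 1 and 21 without FI-Delta 12 h replicate 2.

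At 72 h against 6 h, 1928 probes passed (8.85%), 915 higher (4.2%) and 1013 lower (4.65%). Fos, which forms AP-1 with JUN proteins, was at 1.89 (SE 0.23, adjusted p = 2.94e-05), Fosb at 1.91 (SE 0.37, adjusted p = 0.00187) and Egr1 at 2.58 (SE 0.34, adjusted p = 6.08e-05). Ltf was at 2.00 (SE 0.60, adjusted p = 0.0386) and 1700054A03Rik at 1.97 (SE 0.44, adjusted p = 0.00572). Lower at 72 h than at 6 h were Cpa3, the mast cell carboxypeptidase, at -2.56 (SE 0.24, adjusted p = 8.15e-07), Ikzf2, a zinc finger factor, at -1.88 (SE 0.14, adjusted p = 4.21e-08) and Rab27b, which docks secretory granules, at -1.82 (SE 0.25, adjusted p = 8.57e-05). H2-Eb1, a chain of MHC class II, was at -1.88 (SE 0.29, adjusted p = 2.32e-04) and Tnfsf11, the cytokine RANKL, at -1.75 (SE 0.44, adjusted p = 0.0133). None of these 10 genes had passed at 6 h against 0 h. Of the 6 h genes, Slc7a11 (-1.51, adjusted p = 2.44e-05), Hmox1 (-1.33, adjusted p = 4.72e-04) and Gclc (-1.50, adjusted p = 1.09e-05) fell between 6 and 72 h, a contrast that shares the 6 h RNAs with the one that chose them. The count was 770 without FI-Delta 72 h replicate 1, 1109 without FI-Delta 72 h replicate 2 and 964 without FI-Delta 6 h replicate 2.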

How the data were processed

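RNA was measured on 2-colour spotted arrays. The deposited values are taken to be log2 ratios, normalised before deposit per the labels, and the submitters' processing notes name limma without a version. Background correction and normalisation method are not given in the sources used here. Print run 1 holds 90 arrays, print run 2 holds 26. The members and gene lists were chosen with earlier results of these data known.

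Control spots (1243 of 23040) were left out and 21797 probes tested, without missing values. Current symbols, matched through Entrez identifiers, gave 1 symbol to 16651 probes, several to 137 and none to 5009. Each dye-swap pair was averaged. Least squares within each replicate number, which every array holds to, gave 36 RNA levels, and limma 3.58.1 (R 4.3.3, lmFit and eBayes) tested them with replicate as a block (17 residual and 5.99 prior degrees of freedom, 2-sided). Benjamini-Hochberg adjustment ran over all probes or symbols at a threshold of 0.05. The median SE was 0.09. The fit was tested on simulated data. Named genes were the 15 called probes with the largest rise and the 15 with the largest fall that had 1 symbol and the same sign in both replicate means, up to 4 called members of each list (2 uncalled where none passed) and 5 each way for later times. The list and genes marked as such were chosen after values were seen. Alternatives covered the block, weights, scaling, print run, moderation, direct arrays, dye order, symbol means and each RNA left out.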

Additional observations from a re-analysis of the deposited data

Results flagged for a closer look

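Among 91 named or called list genes, 3 had 1 of the 4 FI-Delta arrays (6 h over 0 h) far from the other 3, by a gap larger than Dixon's critical value for 4 samples, as happens by chance in about 1 in 20 such groups. For Tmtc2 the highest array was at -0.64, with a gap of 0.926 of the range. For F2r the highest array was at -0.27, with a gap of 0.867 of the range. For Gbp2 the highest array was at 3.13, with a gap of 0.885 of the range.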

How the results depend on the processing

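The 6 h count of 158 probes became 226 with no replicate block (the pairing by replicate number set aside), 583 with levels weighted by precision, 295 with arrays scaled and centred, 319 from directly hybridised pairs and 66 from the 2 direct means alone. The last 2 gave 174 higher and 145 lower, and 42 higher and 24 lower, and the fit on the FI-Delta line alone gave 59 higher and 55 lower. Leaving out 1 RNA gave 6 to 252 probes. The difference from V449E had 0 to 2 probes with 1 RNA left out, and that from GM-CSF 0 to 13, with 4 without print run 2 and 1 from the ratios over 0 h. The count of 12 h against 6 h became 143 with no replicate block, 10 with only the line compared, 28 weighted, 42 scaled and 19 as the difference of the ratios over 0 h, and 0 to 258 with 1 RNA left out. The count of 72 h against 6 h became 963 scaled and 1003 as the difference of the ratios over 0 h, and 770 to 1300 with 1 RNA left out. Of genes that did not pass, Aars (-0.69 to 0.080), Ltf (-0.12 to 1.495), Hgf (-0.027 to 1.30), H2-Eb1 (-0.020 to 0.61) and Csf2rb2 (-0.61 to 0.14) changed sign with 1 RNA left out. The cause was not tested. Of the 30 named genes, Birc3 did not pass in the robust fit, Birc3, Nxpe4, Id1 and Xrcc6 with only the FI-Delta line, 5 without print run 2, and Cd48, Id1, Xbp1, Sinhcaf, Xrcc6, Ptpn9 and Hspd1 from the 2 direct means alone. Of the 30 lists 18 had a called member, and 17 with each probe counted. The 2 replicates per condition and unknown signal over background limit what these arrays can show.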
